A study of Mus musculus with 2 samples.

Results

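The genes described here encode the nuclear subunits of the mitochondrial respiratory chain and of the ATP synthase. They were taken from the feature list by symbol, as names beginning with Nduf, Sdha to Sdhd, Uqcr, Cox4i, Cox5, Cox6, Cox7, Cox8 or Atp5. Names with -ps and the assembly factors Ndufaf and Sdhaf were left out. The rule gave 85 of 31058 features, with 36 in complex I, 4 in complex II, 8 in complex III, 20 in complex IV and 17 in the ATP synthase, complex V. Ndufa4 and Ndufa4l2 were counted with complex IV, of which the NDUFA4 protein is a subunit. Atp5o stood under 2 gene identifiers, and the second, a read-through gene model that shared 91.9% of the words at its transcript ends with Donson, had no count.

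Kidney cells came from female C57Bl/6 mice 9 weeks old with the genotype Pax8.rtTA;TetO.Cre;R26.FUCCI2aR, and both groups had rhabdomyolysis, the breakdown of skeletal muscle whose released myoglobin injures the tubule. 1 group received vehicle and the other CA3, known as an inhibitor of the transcriptional coactivator YAP1. The series asks which pathways and targets take part in acute kidney injury and the chronic disease that can follow. Single cells of whole kidneys were profiled by droplet 3' RNA-seq, with 1 library for each group. The Pax8 promoter drives rtTA in tubule epithelium, and whether Cre was induced, the dose of CA3, the time after injury and the number of animals behind each library were not stated in the labels read here. With 1 library per group there is no replicate error and no test between treatments, and every interval below is a 95% interval that covers counting error only.

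Electrons from NADH enter the chain at complex I and electrons from succinate at complex II, and both pass through ubiquinone, complex III and cytochrome c to oxygen at complex IV. Complexes I, III and IV pump protons across the inner membrane, and the ATP synthase uses the returning protons to make ATP. The nuclear genes supply all 4 subunits of complex II and most subunits of the others, while a few core subunits are encoded in mitochondrial DNA. Proximal tubule, thick ascending limb and distal convoluted tubule are known as segments rich in mitochondria, whose ATP feeds the sodium pump.

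After filtering, 1767 vehicle and 1494 CA3 cells were kept, with a median of 7338 and 7567 unique molecular identifiers (UMIs) per cell and a median of 17.5% and 17.7% of UMIs from mitochondrial genes. The libraries shared 1 cell barcode. Levels are counts per 1000000 UMIs (CPM), with mitochondrially encoded genes left out of the total, summed over the cells of a class. Clusters were named from marker genes and are called by those names with "-like", all markers of each main class were detected in it, and doublets were not removed. A cluster of 171 vehicle and 161 CA3 cells, called globin-led from its top genes over both libraries, carried proximal tubule genes and was left unnamed. Globin RNA stood at 7701 CPM in its vehicle cells and at 25.7 CPM in its CA3 cells, so the name describes the vehicle cells only. Proximal tubule RNA in it was at 34960 and 37141 CPM, and members made up 8.20% and 8.40% of its nuclear-gene UMIs. A mixed immune cluster led by Igkc, Igha and Lyz2 is given as such. Markers of skeletal muscle summed to 36 and 49 UMIs over the kept cells.

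Of the 85 members, 80 had at least 20 UMIs over both libraries, 5 had fewer and 2 of these had none, Cox8c and the second Atp5o. All 36 members of complex I, all 4 of complex II and all 8 of complex III had at least 100. Together the members made up 5.93% of nuclear-gene UMIs with vehicle and 6.00% with CA3.

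RefSeq promoter windows of the GRCm38.p6 build, running from 250 bases before to 50 bases after the start, were matched by symbol for 67 of the 85 members. They were searched on both strands for motifs of factors known from respiratory gene promoters. NRF1 (GCGCATGC) occurred in 14.9% of member windows against 2.80% of all 27025 windows. The GABP/ETS motif (CCGGAAG) occurred in 22.4% against 9.12%, YY1 (AAGATGGCG) in 8.96% against 1.49%, CRE (TGACGTCA) in 5.97% against 1.88%, and the estrogen-related receptor motif ERR (TCAAGGTCA) in 2.99% against 0.407%. None of these letter strings is part of another, although the NRF1 letters can overlap their own reverse complement. A match describes letters in a window and no more. The 4 windows below belong to members followed in the CA3 comparison: Uqcr11 and Atp5e were higher with CA3, and Cox6a1 and Atp5g2 were among those lowest with CA3. They lie at chr10:80406772-80407071 (Uqcr11), chr2:174464052-174464351 (Atp5e), chr5:115348909-115349208 (Cox6a1) and chr15:102670998-102671297 (Atp5g2), all on the minus strand and printed 5′ to 3′ along the gene, with motif matches in capitals.
Uqcr11: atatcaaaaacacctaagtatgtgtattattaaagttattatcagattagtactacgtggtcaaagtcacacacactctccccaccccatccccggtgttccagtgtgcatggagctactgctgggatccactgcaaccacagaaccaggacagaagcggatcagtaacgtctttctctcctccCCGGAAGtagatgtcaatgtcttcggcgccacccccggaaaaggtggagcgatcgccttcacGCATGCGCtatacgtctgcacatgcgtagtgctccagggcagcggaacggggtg
Atp5e: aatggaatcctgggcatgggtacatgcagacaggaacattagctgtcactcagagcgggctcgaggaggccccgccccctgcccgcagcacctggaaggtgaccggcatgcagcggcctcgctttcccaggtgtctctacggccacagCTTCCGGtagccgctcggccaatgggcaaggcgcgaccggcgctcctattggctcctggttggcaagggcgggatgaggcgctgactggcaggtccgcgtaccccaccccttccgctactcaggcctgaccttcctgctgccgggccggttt
Cox6a1: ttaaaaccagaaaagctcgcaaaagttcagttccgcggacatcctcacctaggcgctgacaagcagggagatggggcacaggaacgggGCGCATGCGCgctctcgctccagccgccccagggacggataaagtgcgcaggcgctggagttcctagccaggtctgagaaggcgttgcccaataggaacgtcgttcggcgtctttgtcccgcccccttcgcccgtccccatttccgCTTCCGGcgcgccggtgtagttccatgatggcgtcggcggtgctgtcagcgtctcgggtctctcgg
Atp5g2: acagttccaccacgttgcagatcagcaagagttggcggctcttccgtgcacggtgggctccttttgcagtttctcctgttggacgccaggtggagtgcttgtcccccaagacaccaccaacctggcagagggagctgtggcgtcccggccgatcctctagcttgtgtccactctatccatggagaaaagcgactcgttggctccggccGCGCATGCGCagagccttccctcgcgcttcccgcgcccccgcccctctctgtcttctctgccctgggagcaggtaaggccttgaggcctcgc
Uqcr11 and Cox6a1 each held an NRF1 and a GABP/ETS match, Atp5e held a GABP/ETS match, and Atp5g2 held an NRF1 match.

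Along the nephron, member shares of UMIs were compared between whole classes and named sub-clusters. Among these, sub-clusters of the thick ascending limb-like class and distal convoluted tubule-like sub-clusters were highest. The proximal tubule-like class was taken whole, and its highest single cluster, at 8.84% with vehicle and 9.16% with CA3, lay above both. Connecting tubule-like, intercalated cell-like and all proximal tubule-like cells together were lower, in that order in both libraries. Thin limb, endothelial and immune cells were lower still. Thick ascending limb-like cells (90 vehicle and 48 CA3 cells) held members at 6.98% and 6.90% of nuclear-gene UMIs. Sub-clusters were taken as mixed when named otherwise or with 2 or more genes of another class's marker lists among their top 10. Without these mixed sub-clusters, 54 and 41 cells were left with shares of 8.65% and 8.60%. Proximal tubule RNA in them was at 1061 and 1339 CPM, against 4445 and 4922 CPM in the whole class. Genes outside the marker lists were not counted, so the cells left can hold RNA of other classes. A kept sub-cluster of 22 and 19 cells had Cd74, H2-Aa and Tyrobp among its top 10, as the mixed immune cluster did. Proximal tubule-like cells (1266 and 1002) held 5.91% and 6.09%. The vehicle and CA3 values of each of these classes lay close together.

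The distal nephron-like class (84 and 69 cells) held 6.81% and 7.42%. Within it, distal convoluted tubule-like sub-clusters (17 and 18 cells) reached 8.81% in both libraries. Connecting tubule-like sub-clusters (17 and 13 cells) held 7.21% and 7.71%, and a principal cell-like sub-cluster (9 and 5 cells) 5.57% and 6.31%. The order from distal convoluted to connecting tubule to principal cell was the same in both libraries, and it rests on names given from marker lists. S100g was among the top 10 genes of both the connecting tubule-like and the principal cell-like cells. The former also had Rhbg, Atp6v1g3 and Oxgr1 there, and the latter Slc8a1, Calb1 and Trpv5. Intercalated cell-like cells (15 and 18), the acid- and base-secreting cells of the collecting duct, held 6.44% and 7.12%. A thin limb-like sub-cluster (17 and 4 cells) held 3.50% and 3.52%.

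Outside the tubule the shares were lower. Endothelial-like cells (40 and 38) held 2.54% and 3.21%, and 1.55% and 1.95% without the mixed sub-clusters. Of the 17 and 21 cells then left, 14 and 10 belonged to a sub-cluster with Sfrp2, Itga8, Des and Agtr1a among its top 10 genes. T or NK-like cells (51 and 96) held 2.32% and 2.22%, and the mixed immune cluster (39 and 42) 1.95% and 1.80%. Proximal tubule RNA (Kap, Miox, Gpx3 and 5 other genes) stood at 4505 and 3447 CPM in T or NK-like cells and at 3474 and 4210 CPM in endothelial-like cells, against 36961 and 39015 CPM in proximal tubule-like cells. Without the mixed sub-clusters, T or NK-like cells were at 1.96% and 1.92%, with that RNA at 617 and 1028 CPM. Podocyte-like cells (6 and 3) held 2.05% and 2.36%.

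**Figure D1:**
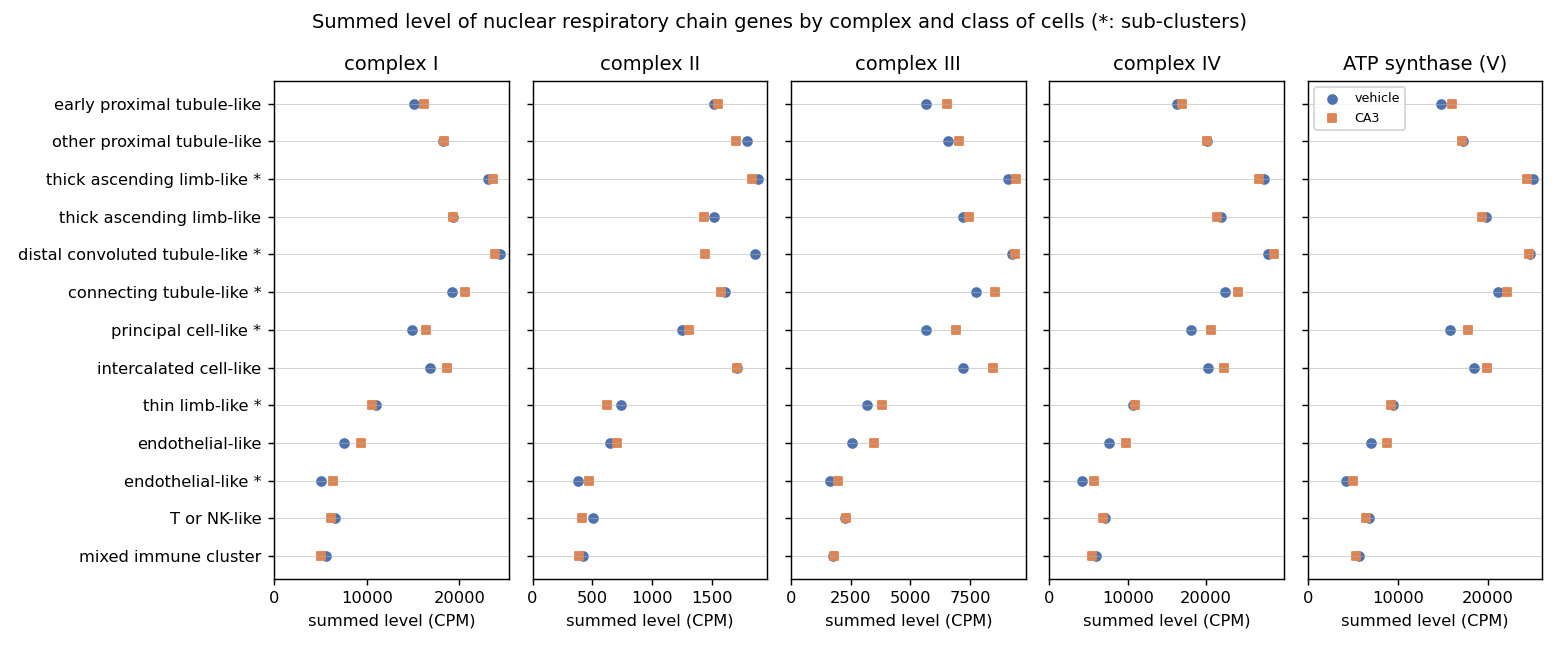
Summed level of the members of each complex (x axis, CPM, from 0) in each class of cells (y axis), with circles for the vehicle library and squares for the CA3 library. An asterisk marks sub-clusters, those left after removing the mixed ones or those named within a class. In the panels of complexes I, III, IV and V thick ascending limb and distal convoluted tubule sub-clusters lie near the right edge, in that of complex II the CA3 distal convoluted tubule value (1441 CPM) lies below the proximal tubule (1625 CPM), and endothelial, T or NK-like and mixed immune cells lie near the left.

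The complexes did not all follow the same order, and complex II was the exception. Relative to proximal tubule-like cells, thick ascending limb-like cells had complex I at 1.15 times in the vehicle and 1.12 times in the CA3 library, complex III at 1.17 and 1.10, complex IV at 1.19 and 1.15, and complex V at 1.23 and 1.17. Complex II, whose enzyme succinate dehydrogenase is also a step of the citric acid cycle, was at 0.913 (0.866 to 0.961) and 0.880 (0.818 to 0.946). Its intervals lay below 1 in both libraries while those of the other 4 complexes lay above 1. Without the mixed sub-clusters complex II was at 1.14 and 1.13, still the lowest of the complexes, which otherwise ran from 1.36 to 1.55.

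Distal nephron-like cells showed the same ranking, with complex II at 0.914 and 0.946 and the other complexes between 1.11 and 1.27. In distal convoluted tubule-like sub-clusters complex II was at 1.12 (0.976 to 1.28) and 0.887 (0.751 to 1.04), and the others between 1.38 and 1.54. In intercalated cell-like cells complex II, at 1.03 and 1.05, lay near complex I, at 0.998 and 1.08. Complex II was the lowest complex there with CA3, and with vehicle only complex I was lower. Thin limb-like cells had complex II at 0.447 and 0.384 against 0.651 and 0.611 for complex I. T or NK-like cells had complex II at 0.305 and 0.256, against 0.340 to 0.423 for the other complexes. Late proximal tubule-like cells (33 and 11) had complex II at 0.892 and 0.720 and complex IV at 1.15 and 1.13.

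Among the 4 complex II genes, the membrane anchor Sdhc fell furthest from the proximal tubule level in the thick ascending limb, at 255 and 241 CPM against 354 and 325. Sdhd, the other anchor, was at 288 and 296 CPM against 342 and 346. The flavoprotein Sdha, which binds succinate, was at 537 and 447 against 460 and 471 CPM, so its libraries went opposite ways. The iron-sulfur subunit Sdhb was at 433 and 447 against 502 and 483 CPM.

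Gene by gene, a member was called higher or lower than in proximal tubule-like cells when its level differed at least 1.5 times in both libraries, among genes with at least 20 UMIs in each library over both classes. In thick ascending limb-like cells 0 of 78 members were higher and 0 lower, while 21.8% of all genes were higher and 16.1% lower. The median log2 ratio was 0.19 for members and 0.18 for all genes. Without the mixed sub-clusters 21 members were higher and 0 lower, against 17.5% and 20% of all genes, with a median log2 ratio of 0.50 for members and 0.03 for all genes. That class is small, and the size of the difference rests on which sub-clusters are counted.

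The members highest relative to the proximal tubule in thick ascending limb-like cells were Ndufb7, Cox7a2l, Ndufs5 and Cox8a. Ndufb7, an accessory subunit of complex I, was at 589 and 621 CPM against 397 and 407. Cox8a, the ubiquitous form of a small complex IV subunit, was at 3005 and 3096 against 2151 and 2199. Ndufa6 and Ndufv3, accessory subunits of complex I, stood lower than in the proximal tubule, at 605 and 566 CPM against 795 and 756 for Ndufa6 and at 352 in both libraries against 421 and 452 for Ndufv3.

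In distal nephron-like cells 1 of 78 members was higher, Ndufa1, and 1 lower, Cox6b2, against 20.1% and 17.6% of all genes. Ndufa1, a small complex I subunit encoded on chromosome X, was at 744 and 976 CPM against 436 and 562. Cox6b2, known as the testis form of Cox6b, was at 9.66 and 19.8 CPM (12 and 17 UMIs) against 22.5 and 31. In distal convoluted tubule-like sub-clusters 24 members were higher and 0 lower, against 13.1% and 26.3% of all genes, with Ndufa1 at 996 and 1242 CPM, Cox7b at 2187 and 2285, and Cox5b at 2136 and 2361. The proximal tubule levels of Cox7b were 1108 and 1086 CPM and of Cox5b 1107 and 1160 CPM, so both complex IV genes were about as far above the proximal tubule in each library.

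In intercalated cell-like cells 1 of 78 members was higher and 1 lower, against 22.4% and 18.7% of all genes. The higher was Cox7a1, the heart and muscle form of Cox7a, at 202 and 219 CPM (47 and 60 UMIs) against 44.0 and 60.9 CPM. Its UMIs were spread over 12 of 15 and 12 of 18 cells. Ndufv3 was lower, at 240 and 263 against 421 and 452 CPM.

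Endothelial-like cells had 0 members higher and 67 of 78 lower, where 26.0% of all genes were higher and 22.1% lower. The median log2 ratio was -1.06 for members and 0.10 for all genes, so members lay lower than the bulk of genes. At a coarser clustering (resolution 0.5), where the class grew to 143 and 90 cells and no thick ascending limb-like class was found, the summed level was 0.955 times that of proximal tubule-like cells. Sdhb was at 137 and 172 CPM against 502 and 483, and Ndufa6 at 270 and 275 against 795 and 756. Among the low genes, Cox6b2 had 4 and 0 UMIs and Atp5s, a factor associated with the ATP synthase, 3 and 1. The counting floor of 3 UMIs for the CA3 endothelial-like cells was 11 CPM, still more than 1.5 times below the proximal tubule level of Cox6b2.

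T or NK-like cells had 0 members higher and 74 of 78 lower, against 20.3% and 36.9% of all genes, with a median log2 ratio of -1.49 for members and -0.41 for all genes. Sdhc was at 75.4 and 67.6 CPM against 354 and 325. Cox6b2, Cox7a1 and Atp5s each had 0 UMIs in the vehicle library, where the floor was 10.8 CPM. The other 4 were Atp5e, Ndufs4, Atp5g2 and Cox7a2l. Of these, Cox7a2l, a factor that helps complexes III and IV associate, was higher than in the proximal tubule, at 370 and 481 CPM against 282 and 277. Cox7a2l was the only member higher in both libraries in either immune class, and in neither class was it past 1.5 in both libraries. Cox6a2 was higher in the mixed immune cluster with CA3 only, with 0 and 9 UMIs. The mixed immune cluster had 0 of 79 members higher and 76 lower, against 17.8% and 39.1% of all genes, and Cox7a2l was at 443 and 385 CPM. There Ndufa4 was at 332 and 269 CPM against 1825 and 1781, and Uqcr10, a small subunit of complex III, at 199 and 225 against 1027 and 1213.

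**Figure D2:**
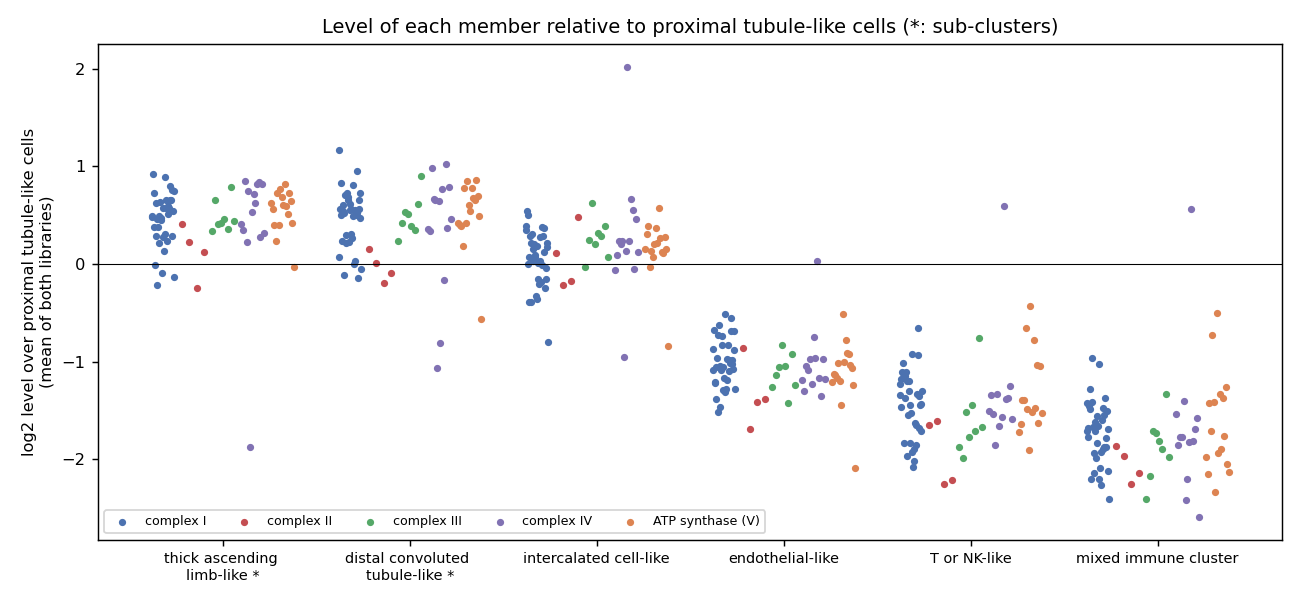
Each point is 1 member, placed by its log2 level over the proximal tubule-like level (y axis, mean of both libraries) in 6 classes of cells (x axis), coloured by complex. Asterisks mark sub-clusters, and members with no UMI in a class are not drawn. Points lie mostly above 0 in the first 2 classes and mostly below -0.5 in the last 3, and the lone high points are Cox7a1 in intercalated cell-like cells and Cox7a2l in the immune classes.

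Within the proximal tubule the clusters covered a wide range. The 9 proximal tubule-like clusters ran from 3.57% and 4.12% of nuclear-gene UMIs in an early cluster led by Snhg11, Slc5a12 and Slc5a2 to 8.84% and 9.16% in a cluster led by Kap, Cyp4a14 and Tmigd1. Single proximal tubule-like cells ran from 0.370% to 13.0% in the vehicle library, with quartiles at 4.16% and 8.81%, and from 0.377% to 13.4% in the CA3 library, with quartiles at 4.33% and 9.26%. All 5 complexes lay on the same side of the class level in both of these clusters. In the early cluster complexes I, II, III, IV and V were at 0.608, 0.674, 0.610, 0.587 and 0.607 times the class level in the vehicle library, and in the cluster led by Kap at 1.5, 1.33, 1.47, 1.59 and 1.42 times.

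The share moved with depth and with nuclear RNA. The nuclear-retained or noncoding transcripts Malat1, Neat1, Xist and Snhg11 together stood at 205889 and 185042 CPM in the early cluster with the lowest share and at 1017 and 846 CPM in the cluster with the highest. Over the 9 clusters, which share a library, Spearman's rho with the member share was -0.93 and -0.98 for these transcripts, -0.85 and -0.80 for median UMIs per cell, and 0.75 and 0.83 for the mitochondrial share. In cells with at most 5000 UMIs the member share was 7.88% and 8.08%, with those transcripts at 25646 and 35401 CPM. In cells with more than 12000 UMIs it was 5.35% and 5.37%, with the transcripts at 105352 and 121264 CPM. Their part in the spread was not tested.

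Early proximal tubule-like cells (552 and 451), from the 3 clusters with Slc5a2 among their leading genes, held members at 5.34% and 5.72%. The proximal tubule-like cells of no assigned segment (681 and 540) held 6.40% and 6.43%, and late cells 6.34% and 6.00%. Nuclear transcripts were at 120269 and 114739 CPM in the early cells and at 78062 and 86497 CPM in the others. Ndufb11, a membrane-arm subunit of complex I, was at 469 and 489 CPM in the early cells and at 733 and 667 in those of no assigned segment. Ndufs1, which carries iron-sulfur clusters of complex I, went the other way, at 200 and 229 CPM in the early cells and 186 and 199 in the others.

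**Figure D3:**
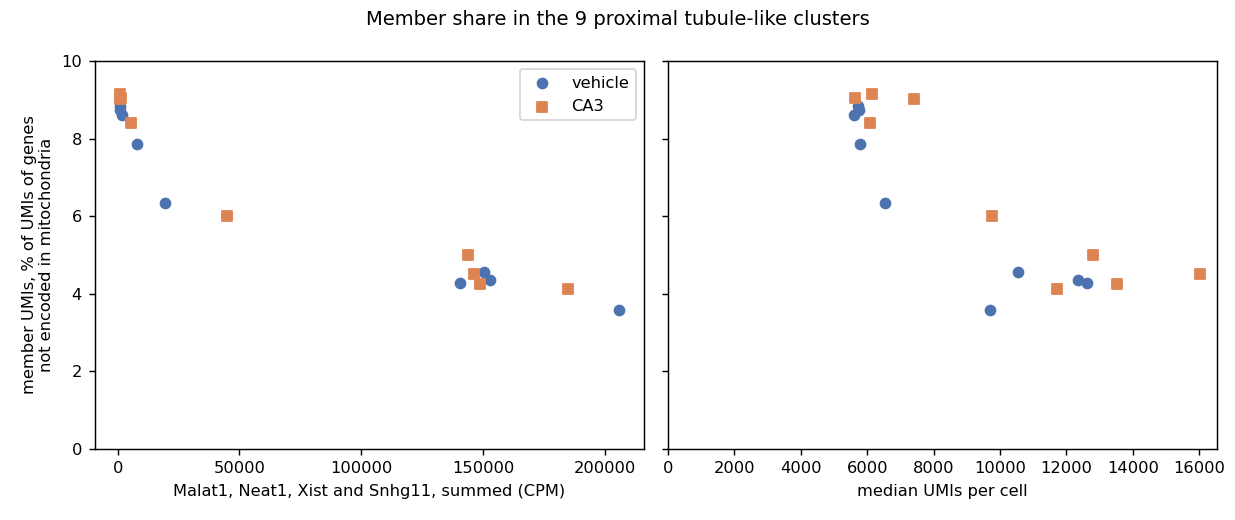
Member share of nuclear-gene UMIs (y axis, percent) in each of the 9 proximal tubule-like clusters, against the summed level of Malat1, Neat1, Xist and Snhg11 (left, CPM) and against median UMIs per cell (right), with circles for vehicle and squares for CA3. Clusters with the most nuclear transcripts and the most UMIs lie lowest, near 4%, and clusters with few nuclear transcripts lie near 9%.

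Subunits encoded in mitochondrial DNA were counted apart. In proximal tubule-like cells mitochondrial transcripts of complex IV made up 8.47% and 8.51% of all UMIs, and the ratio of mitochondrial to nuclear UMIs of that complex was 5.70 and 5.65. In thick ascending limb-like cells the ratio was 6.96 and 6.83 and in distal nephron-like cells 7.35 and 7.07, so these segments were higher on both genomes. For complex V the ratio was 2.71 and 2.67 in proximal tubule-like cells and 1.96 and 2.21 in T or NK-like cells. The filter on mitochondrial UMIs bears on these ratios. The 200 vehicle and 230 CA3 barcodes removed by the filters on mitochondrial UMIs and on genes together held members at 5.24% and 6.06%.

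Several subunits have tissue isoforms, and the 3' counts, 1 UMI per molecule and not divided by length, give each isoform's share of its set. The membrane ring of the ATP synthase is made of an identical subunit encoded by Atp5g1, Atp5g2 and Atp5g3. In proximal tubule-like cells the shares were 44.4%, 21.0% and 34.6% with vehicle and 48.0%, 18.3% and 33.7% with CA3. Thick ascending limb-like, distal nephron-like and intercalated cell-like cells kept this order, with Atp5g2 between 18.4% and 22.4%. In T or NK-like cells Atp5g2 had the largest share, with 39.6% (34.2% to 45.3%) and 35.4% (31.6% to 39.3%). These intervals overlapped those of Atp5g1, 25.9% to 36.4% and 28.8% to 36.5%. In the mixed immune cluster Atp5g2 led with 42.6% and 44.4%, with intervals above those of Atp5g1 and Atp5g3. All 4 immune intervals of Atp5g2 lay above those of the 4 tubule classes named here, and the whole endothelial-like class, at 31.1% and 26.4%, lay between. Without the mixed sub-clusters endothelial-like cells had Atp5g2 at 46.7% (39.4% to 54.2%) and 34.6% (24.3% to 46.0%). A high Atp5g2 share was thus not particular to the immune classes.

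Cox7a has a muscle form (Cox7a1), a general form (Cox7a2) and the related assembly factor Cox7a2l. In proximal tubule-like cells their shares were 2.82%, 79.2% and 18.0% in the vehicle and 3.67%, 79.6% and 16.7% in the CA3 library. Cox7a1 reached 9.53% (7.09% to 12.5%) and 9.85% (7.60% to 12.5%) in intercalated cell-like cells, with both intervals above those in proximal tubule, thick ascending limb, distal nephron, endothelial, T or NK-like and mixed immune cells. Cox7a2l took 45.6% and 52.9% in T or NK-like cells and 58.0% and 48.3% in the mixed immune cluster, with intervals above those in the 4 tubule classes. In endothelial-like cells Cox7a2l took 37.0% in the vehicle and 22.6% in the CA3 library, so there the libraries differed by more than counting error.

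**Figure D4:**
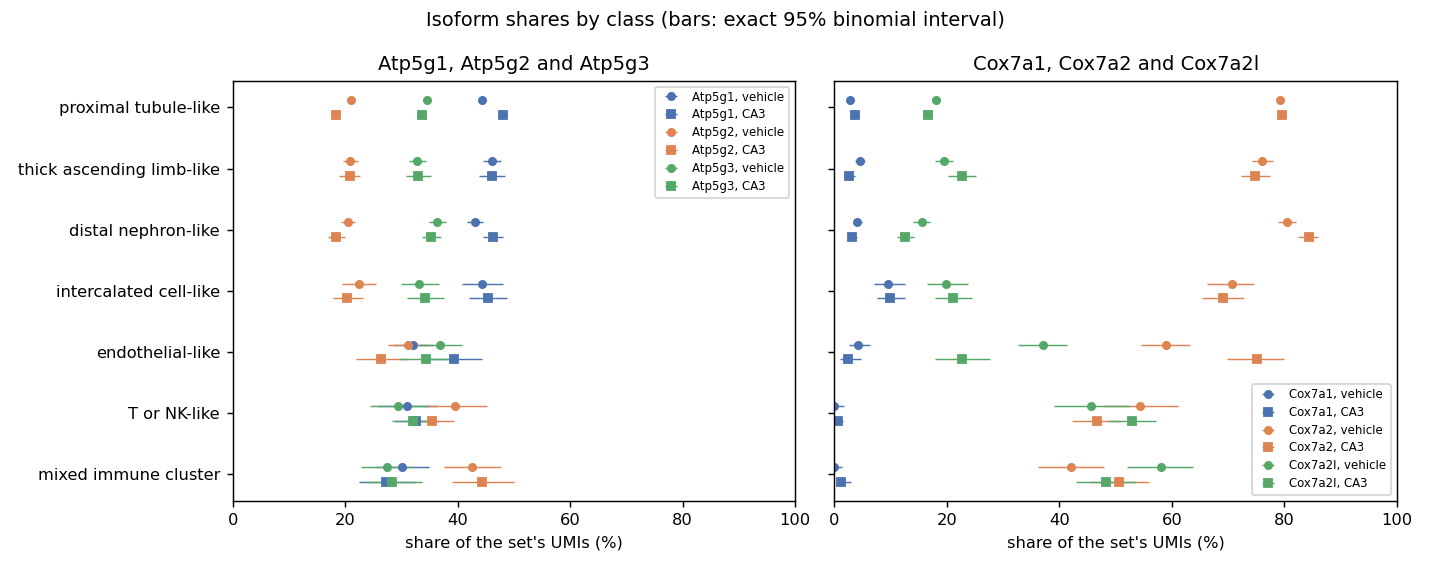
Share of each isoform in the UMIs of its set (x axis, percent) by class of cells (y axis), for the 3 Atp5g genes (left) and for Cox7a1, Cox7a2 and Cox7a2l (right). Circles are vehicle, squares CA3, bars exact 95% binomial intervals. Atp5g2 moves from the lowest share in tubule cells to the highest in the immune classes, with bars that overlap those of Atp5g1 in T or NK-like cells. Cox7a2l moves from near 20% to near 50%.

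The other isoforms were rare. Cox6b2 made up 1.95% and 2.34% of Cox6b UMIs in proximal tubule-like cells, at 22.5 and 31 CPM, its highest level among the 7 classes shown above. Cox6a2, the muscle form of Cox6a, had 29 and 24 UMIs, 13 of them in 3 cells. The striated muscle form Cox8b had 10 and 0 UMIs, 5 of them in 4 of the 33 late proximal tubule-like vehicle cells, at 19.2 CPM. The 11 late CA3 cells had none, with a floor of 30.3 CPM. Cox7b2 had 1 and 0 UMIs, and the testis form Cox8c had none. Cox4i2, the form known from lung and smooth muscle, had 12 and 1 UMIs in 5 cells. Of these, 10 lay in 2 vehicle cells of the endothelial-like cluster, which held pericyte and smooth muscle markers at 7676 CPM against 809 CPM in the other 38. In vehicle proximal tubule-like cells it had none against 27460 UMIs of Cox4i1, where the 3-UMI floor was 0.313 CPM.

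Ndufa4l2, known as a hypoxia-induced relative of Ndufa4, had 49 UMIs with vehicle and 0 with CA3. Of the 49, 46 lay in 6 cells of the endothelial-like cluster, at 81.6 CPM over the 40 vehicle cells. Those 6 cells held 709 UMIs of pericyte and smooth muscle markers, or 2960 CPM, against 30.9 CPM in the other 34. The CA3 endothelial-like cluster held 0 of 38 cells with at least 3 such marker UMIs, against 7 of 40 in the vehicle library. The absence of Ndufa4l2 with CA3 therefore came with an absence of pericyte-marked cells, and the effects of treatment and of which cells were caught cannot be told apart.

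Regulators of mitochondrial biogenesis were followed from a list. Ppargc1a, which encodes the coactivator PGC-1α, was at 108 and 122 CPM in proximal tubule-like cells, 382 and 223 in thick ascending limb-like, 204 and 248 in distal nephron-like and 214 and 234 in intercalated cell-like cells. It was at 30.2 and 69.6 CPM in endothelial-like and at 17.9 and 9.89 in T or NK-like cells. The thick ascending limb value came from 401 and 123 UMIs, and there the vehicle library was higher. Esrrg, a nuclear receptor that works with it, was at 29.2 and 27.4 CPM in proximal tubule-like cells and 103 and 109 in intercalated cell-like cells. Esrrb was nearly absent from proximal tubule-like cells, at 1.15 and 0.614 CPM, and at 23.8 and 20 in thick ascending limb-like cells. Esrra was at 93.9 and 83.6 CPM in proximal tubule-like and 99.1 and 79.9 in thick ascending limb-like cells, so it did not separate the segments.

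CA3 and vehicle were compared within classes with at least 50 cells in each library. In proximal tubule-like cells the members as a whole stood nearly level: they summed to 59136 CPM with vehicle and 60947 with CA3, a ratio of 1.03 (1.03 to 1.03). The ratio was 1.03 (1.02 to 1.04) for complex I, 0.980 (0.957 to 1) for complex II, 1.11 (1.09 to 1.12) for complex III, 1.02 (1.01 to 1.02) for complex IV and 1.02 (1.02 to 1.03) for complex V. Complex III was the only complex above 1.05. Over the 79 members with at least 20 UMIs the median log2 ratio was 0.006, and over all 11702 genes -0.0015.

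With CA3, 9 members were at least 1.2 times higher and 1 at least 1.2 times lower, against 13.5% and 13.3% of all genes. At 1.5 times the counts were 0 higher and 1 lower, against 3.50% and 4.67%. Among genes with at least 1000 UMIs, where counting error is small, 7 of 75 members were higher and 0 lower at 1.2 times, against 3.95% and 3.48% of all such genes, with log2 ratios from -0.26 to 0.40. The 1 lower member was Cox6a2, with 26 and 12 UMIs. The higher members were thus a small group. When each library was clustered on its own, 29 members were higher and 2 lower, over 996 vehicle and 1083 CA3 proximal tubule-like cells, with 483 and 83 cells left unnamed.

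Uqcr11, the smallest subunit of complex III, was at 902 CPM with vehicle and 1194 with CA3, 1.32 times (1.29 to 1.36). Of the complex I subunits, Ndufa1 was at 436 and 562 CPM, Ndufb2 at 262 and 324, Ndufa5 at 473 and 577 and Ndufa2 at 617 and 749. Atp5e, the epsilon subunit of the central stalk of the ATP synthase, was at 1025 and 1296 CPM, 1.26 times (1.23 to 1.30). Atp5j2, a subunit of its membrane part, was at 862 and 1050 CPM. The rare isoforms Cox7a1, at 44.0 and 60.9 CPM, and Cox6b2, at 22.5 and 31 CPM, were both 1.38 times higher, with the widest intervals of the group, 1.21 to 1.58 and 1.14 to 1.66.

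At the other end, Atp5g2 was at 581 CPM with vehicle and 486 with CA3. Cox4i1, the general form of the largest nuclear subunit of complex IV, was at 2866 and 2459 CPM, and Cox6a1 at 1074 and 943. None of these 3 reached 1.2 times. Other subunits did not follow: Atp5g1 was at 1227 and 1276 CPM, Cox6c at 2286 and 2639 and Cox7c at 1949 and 2221, so within complex IV some subunits stood higher and others lower with CA3.

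Atp5e, Ndufa1 and Atp5j2 were higher with CA3 in all 9 proximal tubule-like clusters and at least 1.2 times so in 8. Uqcr11 was higher in 8, at 1.24 to 1.51 times, and at 0.948 in the late cluster of 33 and 11 cells. Cox4i1 and Cox6a1 were lower in all 9, at 0.803 to 0.981 and 0.812 to 0.990 times. The sum of all members was higher in 7 of 9, between 0.947 and 1.16 times. Early proximal tubule-like cells had a sum ratio of 1.07 (1.06 to 1.08) and those of no assigned segment 1 (0.999 to 1.01). The clusters come from the same 2 libraries and are no replicates.

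The higher members had shorter transcripts on the whole. Their median length was 455 nt against 763 nt for the other members with at least 100 UMIs. The 9 members with transcripts up to 450 nt had a median log2 ratio of 0.240, and other protein-coding genes of that length (27 genes) had 0.234, with 37.0% of them at least 1.2 times higher. Ribosomal protein genes of that length (8 genes) had 0.112. Over 600 to 1200 nt the medians were -0.028 for 30 members and -0.065 for 879 other genes. Short genes outside the set followed the same pattern, such as Romo1, a small inner membrane protein (362 nt, 356 and 471 CPM), and Usmg5, which belongs to the ATP synthase dimer (352 nt, 654 and 816 CPM). Atp5g2 (441 nt) was an exception at 0.837 times. The part of transcript length in the CA3 ratios was not tested.

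**Figure D5:**
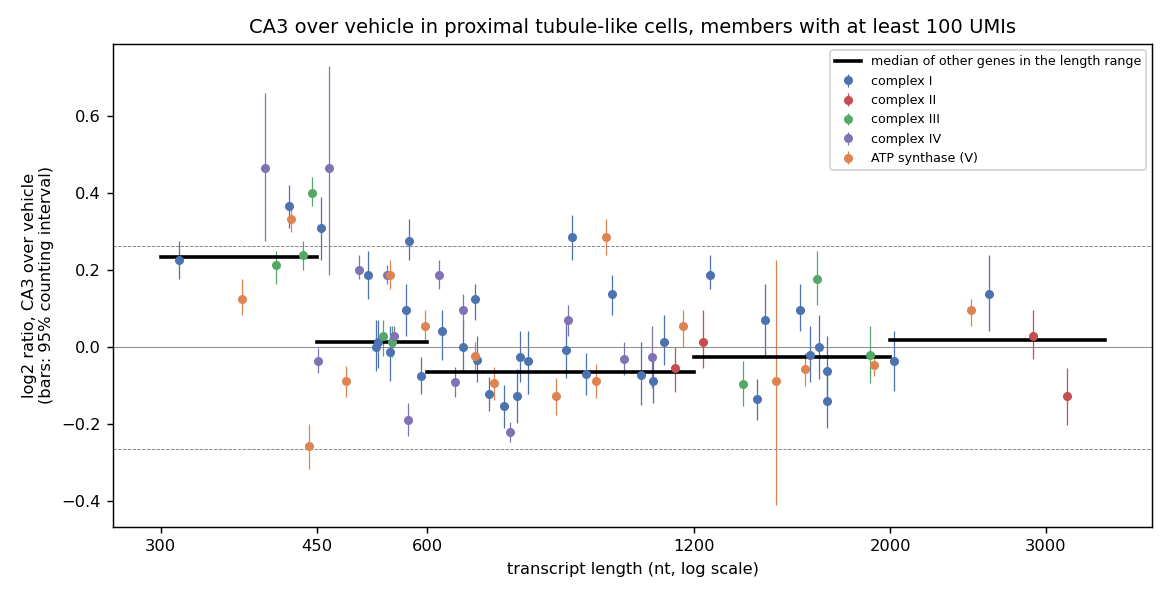
CA3 over vehicle in proximal tubule-like cells (y axis, log2 ratio with 95% counting intervals) against transcript length (x axis, nt, log scale) for the members with at least 100 UMIs, coloured by complex. Black lines give the median of other protein-coding genes in each length range and dashed lines a ratio of 1.2 in either direction. Members and other genes up to 450 nt lie mostly above 0, and longer ones scatter around it.

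In distal nephron-like cells 11 of 78 members were at least 1.2 times higher with CA3 and 1 lower, against 22.3% and 27.7% of all genes, with a median log2 ratio of 0.074 against -0.0437 over all genes. Uqcr11 was at 1130 and 1555 CPM, 1.38 times (1.28 to 1.48). The small complex IV subunits Cox7c, at 1982 and 2570 CPM, and Cox6c, at 2754 and 3500, were 1.30 and 1.27 times higher. Complex III had the highest sum ratio of the complexes, 1.16 (1.12 to 1.2), from 7118 and 8262 CPM. Without the mixed sub-clusters complex III was at 7537 and 8125 CPM. By sub-cluster it was at 9262 and 9388 CPM in distal convoluted tubule-like, 7756 and 8537 in connecting tubule-like and 5650 and 6915 in principal cell-like cells. Proximal tubule RNA was at 4907 and 6273 CPM in this class and mitochondrial UMIs at 24.9% and 26.3%, and their part in the ratios was not tested. The 9 members up to 450 nt had a median log2 ratio of 0.254 and other genes of that length 0.218.

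In T or NK-like cells 7 of 75 members were higher and 22 lower, against 29.3% and 28.9% of all genes, with a median log2 ratio of -0.060 against 0.0048. Both shares of members lie near or under the background. Cox7a2l was at 370 and 481 CPM, Atp5f1, a subunit of the peripheral stalk of the ATP synthase, at 319 and 394, and Ndufa3 at 190 and 244. Ndufv2, an iron-sulfur subunit of complex I, was at 176 and 107 CPM, Cox4i1 at 1063 and 828, and Atp5a1, a catalytic-head subunit of the ATP synthase, at 521 and 401. The class held 51 vehicle and 96 CA3 cells, and globin RNA stood at 9628 CPM with vehicle and 24.7 with CA3.

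For classes with fewer than 50 cells in a library the values are given without counts of calls. Thick ascending limb-like cells (90 and 48) had a sum ratio of 0.989 (0.976 to 1), with Uqcr11 at 1137 and 1394 CPM, Ndufa1 at 486 and 659, Cox4i1 at 3197 and 2677 and Cox6a1 at 1121 and 806. Endothelial-like cells (40 and 38) had a sum ratio of 1.26 (1.23 to 1.30), with Uqcr11 at 358 and 626 CPM, Ndufa1 at 227 and 322 and Cox4i1 at 1066 and 1274. The sum ratio pools UMIs, and the median member share of single endothelial-like cells was 1.83% with vehicle and 1.96% with CA3. The class also held 7 of 40 vehicle and 0 of 38 CA3 cells with at least 3 pericyte and smooth muscle marker UMIs. The part of these cells in the ratio was not tested. Proximal tubule RNA in the endothelial-like cells was at 3474 and 4210 CPM, and at 474 and 745 CPM without the mixed sub-clusters. Uqcr11, Ndufa1 and Atp5e were higher with CA3 in the 3 tubule classes and in endothelial-like cells with intervals above 1. In T or NK-like cells their intervals held 1, with Ndufa1 at 201 and 223 CPM, 1.11 times (0.805 to 1.54). Without the mixed sub-clusters Ndufa1 was not higher outside the tubule, at 174 and 170 CPM in endothelial-like cells (52 and 19 UMIs) and 201 and 196 CPM in T or NK-like cells (44 and 106 UMIs). The part of tubule RNA in these values was not tested. Cox4i1 was lower with CA3 in 4 of the 5 classes and higher in endothelial-like cells.

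Related gene lists were read in proximal tubule-like cells at the same 1.2 times, where 13.5% of all genes were higher and 13.3% lower. Of the 13 genes encoded in mitochondria 2 were higher and 0 lower: mt-Nd3 at 4717 and 7086 CPM, 1.5 times (1.48 to 1.52), and mt-Nd6 at 318 and 382. The others stood between 0.947 and 1.06 times. Of 46 assembly factors 2 were higher, Ndufaf4 and Pet100, and 4 lower, among them Sco1, a copper chaperone of complex IV, at 10.5 and 6.14 CPM. Of 13 carriers and regulators 3 were higher, Romo1, Higd1a and Usmg5, and 0 lower. Of 13 citric acid cycle genes only Dlst was higher, at 175 and 211 CPM.

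Of 15 measured biogenesis regulators 2 were higher and 1 lower, and Ppargc1a was at 108 and 122 CPM. Of 15 glycolysis genes 2 were higher, with Eno1 at 268 and 392 CPM and Pfkl at 24.4 and 31.3, and 1 lower. Of 9 membrane carriers 2 were higher, with Tomm7, of the outer membrane import pore, at 303 and 386 CPM and Ckmt1 at 11 and 15 UMIs. Of 16 immediate early genes 1 was higher and 4 lower, with Hspa1b at 98.1 and 52.9 CPM. The medians of these lists lay between -0.096 and 0.026, near that of all genes.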

How the data were processed

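Gene counts of unique molecular identifiers (UMIs) per cell barcode were deposited by the authors for 1 vehicle and 1 CA3 library of droplet 3' RNA-seq, made with Cell Ranger 3.0.1 on mm10 per the submitters' processing notes. How barcodes were called as cells is not given in the sources used here. Barcodes were kept when they had 500 genes or more and no more than 50% of UMIs from mitochondrial genes. Cells of both libraries were clustered with scanpy 1.11.5 (2000 variable genes without the members and mitochondrial genes, 30 principal components, 15 neighbours, Leiden resolution 1), giving 20 clusters, 9 of them proximal tubule-like. Names came from marker lists, and no doublet caller was run. Levels are summed UMIs per 1000000 nuclear-gene UMIs. Ratios have exact conditional binomial intervals and shares exact Clopper-Pearson intervals at 95%, computed with scipy 1.17.1, numpy 2.4.6 and pandas 2.3.3 in Python 3.11.15. They cover counting error only, because the cells of a library do not replicate its treatment. A member was read in a class with at least 20 UMIs there, and 3 UMIs were the floor for a count of 0. The ratio code was tested on simulated data. Transcript lengths came from the mm10 annotation of GENCODE.

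The members, gene lists, thresholds and named genes were chosen with earlier results of these data known. Any member could be named. For CA3 the rule took members at 1.2 times or more, ranked by the bound nearest 1 among those with at least 100 UMIs, and for classes up to 4 each way by the ratio in both libraries. Alternatives changed cell filters, totals, depth, clustering, class definitions and the members read.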

Additional observations from a re-analysis of the deposited data

How the results depend on the processing

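No paired analysis was possible because each group has 1 library. In proximal tubule-like cells the CA3 median log2 ratio ran from -0.025 to 0.208 over the alternatives. The highest, 0.208, with 29 members higher and 2 lower, came from clustering the libraries separately. The count of lower members was 3 under a strict cell filter (1000 genes or more, no more than 25% mitochondrial UMIs), 2 at Leiden resolution 0.5, at resolution 2 and without the 3 cells richest in each gene, and 0 for members with at least 100 UMIs. With transcripts over 450 nt only, 5 were higher there and 7 in distal nephron-like cells.

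Distal nephron-like cells had 18 members higher and 0 lower with no cell filter, 18 higher without the 50 genes of most UMIs in the total, 2 lower over all UMIs, and 0 lower among members with at least 100 UMIs. Thinned to 2000 UMIs per cell they had 31 higher, 3 lower and a median of 0.208, and without the 3 richest cells 2 lower and a median of 0.027. T or NK-like cells had 16 higher when thinned, and without the 3 richest cells 14 higher, 13 lower and a median of 0.033.

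Summed levels over proximal tubule-like cells moved as follows, with thick ascending limb, distal nephron, endothelial and T or NK-like cells in that order where several are given. The strict cell filter gave 1.06, 1.11, 0.392 and 0.406, and no filter gave 1.41 for the thick ascending limb. All UMIs in the total gave 1.10, 1.09 and, for T or NK-like cells, 0.435. Leaving out the 50 top genes gave 1.04, 1.12, 0.408 and 0.326. Thinning gave 1.26, with 0.400 for endothelial and 0.336 for T or NK-like cells. Resolution 0.5 gave 1.26 for distal nephron, 0.955 for endothelial and 0.404 for T or NK-like cells, and resolution 2 gave 1.44 for the thick ascending limb, as did members among the variable genes. Separate clustering gave 0.562 for endothelial cells, and a marker gate on single cells 1.27, 1.04, 0.295 and 0.307, with the distal vehicle value at 0.973.

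Alternatives chosen after seeing the data gave 1.44 for the thick ascending limb, 0.289 for endothelial and 0.323 for T or NK-like cells without mixed sub-clusters. Leaving out proximal clusters with Cyr61 among their top genes gave 1.05, 1.08 and, for T or NK-like cells, 0.345. Counting the globin-led cluster as proximal tubule-like gave 1.11 and 1.14. The cause of these moves was not tested. Thick ascending limb values at resolution 0.5 and under separate clustering, T or NK-like values under separate clustering, and distal CA3 counts under the strict filter and the gate could not be obtained, because a class was not found or had too few cells. No cluster met the rule for leaving out clusters led by immediate early genes.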
